A study of Mus musculus with 9 samples.

Results

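A pair of macrophage states of mouse bone marrow cultures were set against each other, one made with dexamethasone and IL-4 and one with melanoma-conditioned medium. The members are 6 of the series' 9 arrays, chosen by their titles: 3 titled for stimulation with dexa+IL4 and 3 titled for stimulation with cmB16F1. All arrays came from bone marrow of C57BL/6 mice, taken from tibias and femurs and cultured with 30 ng/ml of M-CSF, the growth factor of macrophages. At day 4 the medium was exchanged, and the cells were harvested 3 days later, after 7 days in all. The dexa+IL4 group received interleukin 4 (IL-4) at 10 ng/ml and dexamethasone, a synthetic glucocorticoid, at 5e-07 M. The cmB16F1 group received medium conditioned by B16F1, an established mouse melanoma line, without these agents. The remaining 3 arrays of the series received both and are shown as a reference for single values. They also enter the estimate of spread behind the p-values, the range of the background controls and the ranking by level. The series has no medium-only arrays and the groups differ in every agent, so no difference can be assigned to one of them. The labels do not say whether the 3 arrays of a group came from separate mice or cultures, so the p-values measure the spread between arrays, which may be technical. The labels give neither the age or sex of the mice nor how the conditioned medium was made.

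Glucocorticoids act through a nuclear receptor that switches on anti-inflammatory genes in macrophages and represses inflammatory ones. IL-4 signals through STAT6 and drives the alternative, or M2, form of activation, while tumour cells release factors and metabolites that turn macrophages towards a tumour-associated state. Macrophages also recycle iron, and the transferrin receptor, by which cells take up transferrin-bound iron, is among the genes that follow their iron and oxygen supply. Glycolysis, to which Gapdh belongs, is raised in many cells by low oxygen.

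Each array gave log2 values for 17810 UniGene clusters, sets of transcript sequences that each stand for a gene in the UniGene database. The cluster numbers are not paired with gene names in the files, and the gene table used here matched 0 of them. Genes are therefore named only where the array maker's mouse control sets name the transcript, and 4 clusters are given by number. The macrophage label could not be checked against marker genes for the same reason. The low end of the scale was judged by 27 bacterial poly-A control sets, which ranged from 6.09 to 7.00 over all 9 arrays. The highest value on the 6 arrays was 14.2, and differences close to it may be compressed. Their medians lay between 7.19 and 7.22.

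The promoters of Tfrc and Gapdh are shown. They were chosen as the 2 named genes that differed, at a limma adjusted p under 0.05, at each of their probe sets, in opposite directions. Tfrc lies at chr16:32608896-32632794 and Gapdh at chr6:125161852-125166467 in the mouse assembly GRCm38.p6. The sequences are the 250 bases before an annotated start, taken from RefSeq and written 5′ to 3′ on the gene's own strand. That of Tfrc is chr16:32608646-32608895 on the plus strand, before the first of its 2 annotated starts, and that of Gapdh is chr6:125165774-125166023 on the minus strand, within the span of the gene model. Capitals mark GCGTG or, on the other strand, CACGC, a core sequence of hypoxia response elements.
Tfrc: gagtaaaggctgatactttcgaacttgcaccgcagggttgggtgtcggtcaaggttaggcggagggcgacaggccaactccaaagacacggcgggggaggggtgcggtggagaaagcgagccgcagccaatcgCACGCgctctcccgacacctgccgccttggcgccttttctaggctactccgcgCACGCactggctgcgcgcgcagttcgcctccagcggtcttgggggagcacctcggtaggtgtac
Gapdh: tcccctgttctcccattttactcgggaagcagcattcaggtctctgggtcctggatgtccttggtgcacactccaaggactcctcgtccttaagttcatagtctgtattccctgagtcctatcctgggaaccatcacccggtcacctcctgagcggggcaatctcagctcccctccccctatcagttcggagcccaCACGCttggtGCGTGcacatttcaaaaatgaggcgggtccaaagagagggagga
The motifs searched on both strands were GCGTG, its variant form ACGTG, the palindromic STAT6 site and the glucocorticoid response core ACANNNTGT. Matches to GCGTG were found at 2 places in each of these windows, beginning 117 and 64 bases before the Tfrc start and 54 and 44 bases before the Gapdh start, with no overlap between matches. Of 32851 windows of the same length in the table, 28.2% held GCGTG and 38.6% held GCGTG or ACGTG. The variant ACGTG, held by 16.6% of all windows, the STAT6 site, held by 5.85%, and ACANNNTGT, held by 5.84%, had no match in either window. Before the second Tfrc start, ACGTG began at 228 bases and GCGTG at 134 and 42 bases. The named gene Pcx, which was close to background in both groups, was searched too. Before its first start ACGTG began at 248, 247 and 140 bases, and its second start had no match to any of the motifs. GCGTG had no match before either Pcx start. Pcx itself differed slightly at its 5' probe set, so it does not stand for genes without a difference. Whether the motifs bear on the differences was not tested. These matches describe the letters in the windows and are not evidence of binding.

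The transferrin receptor was the named transcript with the largest difference, and its level was high with dexamethasone and IL-4 and close to background in conditioned medium. Its 3' probe set read 10.51, 10.62 and 10.33 on the log2 scale in the 3 dexa+IL4 arrays and 7.17, 7.09 and 7.17 in the 3 cmB16F1 arrays. The groups were 3.16 apart at their closest arrays, and the cmB16F1 values stood just over the top of the bacterial controls at 7.00. The means were 10.49 ± 0.15 and 7.14 ± 0.05 (SD, n = 3), a 10.2-fold difference, which may be too small because the lower mean is near background. The log2 difference was 3.35 (SE 0.0987), with an adjusted p of 2.791e-08 from limma with Benjamini-Hochberg adjustment.

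Probe sets nearer the start of the Tfrc transcript showed the same order of the groups at lower levels. The middle set read 9.16, 9.31 and 8.94 in dexa+IL4 and 6.63, 6.55 and 6.54 in cmB16F1. The 5' set read 8.89, 8.95 and 8.55 in dexa+IL4 and 6.47, 6.50 and 6.43 in cmB16F1. In cmB16F1 both sets lay at the level of the bacterial controls, so only a lower bound is given, with each array's highest bacterial control in place of a value below it. By that bound the dexa+IL4 level of Tfrc was at least 4.57-fold that of cmB16F1 at the middle set and at least 3.61-fold at the 5' set (limma adjusted p = 3.493e-07 and 7.122e-07). The 3 sets were called, which means an adjusted p under 0.05, under all 16 alternative analyses, with the log2 difference of the 3' set between 3.28 and 3.43. Cells that received both treatments lay between the groups at the 3' set, at 8.85, 8.47 and 8.63.

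Gapdh, an enzyme of glycolysis that is often used as a reference gene, was lower in dexa+IL4 at each of its 3 sets. At the 3' set the dexa+IL4 arrays read 12.25, 12.25 and 12.19 and the cmB16F1 arrays 13.13, 13.20 and 13.09. The closest arrays of the groups were 0.84 apart, and the arrays of each group lay close together. The means of 12.23 ± 0.03 and 13.14 ± 0.06 (SD, n = 3) differed 1.89-fold, with a log2 difference of -0.92 (SE 0.0640, limma adjusted p = 6.122e-06). At the middle set the means were 12.11 ± 0.03 and 13.08 ± 0.09, a difference of -0.97 (limma adjusted p = 1.069e-05). At the 5' set they were 11.92 ± 0.12 and 12.72 ± 0.19, a difference of -0.80 (limma adjusted p = 9.375e-04). All 3 calls held under the 16 alternatives, and in no set did the groups overlap. Cells with both treatments lay between the groups at the 3' set too, at 12.87, 12.96 and 12.72.

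Beta-actin, a cytoskeletal protein encoded by Actb at chr5:142903115-142907976, had slightly lower means in dexa+IL4 at its 3 sets, of which 1 was called. The 3' set read 13.71, 13.75 and 13.58 in dexa+IL4 against 14.01, 13.91 and 13.93 in cmB16F1. The groups did not overlap, although all 6 values lay near the highest value of 14.2, so that the size of the difference is uncertain. It was -0.27 (limma adjusted p = 0.00433), a 1.20-fold difference, and the call ended with scaling to the hybridization controls (0.245, with a range from 0.00320 to 0.245 over 16 alternatives). The middle set, at 12.83 ± 0.17 and 13.17 ± 0.18 (SD, n = 3), and the 5' set, at 12.69 ± 0.20 and 12.99 ± 0.26, missed the threshold with differences of -0.34 and -0.30 (limma adjusted p = 0.0655 and 0.207).

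Pyruvate carboxylase, which supplies oxaloacetate to the citric acid cycle and is encoded by Pcx at chr19:4510472-4621752, was close to background in both groups. Its 4 sets had group means between 7.14 and 7.50. At the 5' set the dexa+IL4 arrays read 7.36, 7.41 and 7.39 and the cmB16F1 arrays 7.29, 7.24 and 7.30. The groups did not overlap, but the gap between them was 0.07. This set was called, with a difference of 0.11 (limma adjusted p = 0.0315), a call that ended under 7 of 16 alternatives: scaling to the hybridization controls, the block in a fit of only the 6 arrays, and leaving out any dexa+IL4 replicate or cmB16F1 replicate 1 or 2 (adjusted p from 0.0167 to 0.703 over all 16). The first middle set missed the threshold at 0.02 (adjusted p = 0.778). The 3' set, at 0.10 (0.108), passed with median centring. The second middle set, at 0.12 (0.0650), passed with quantile normalization, with median centring and with dim clusters left out.

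The 18S ribosomal RNA sets differed more between the cmB16F1 arrays than between the groups. The 3' set read 9.17, 9.17 and 9.29 in dexa+IL4, and 9.24, 10.58 and 10.08 in cmB16F1. One cmB16F1 array, replicate 1, thus lay among the dexa+IL4 arrays and the other two above them. The difference of -0.76 was not called (limma adjusted p = 0.116). It was -1.12 and passed without cmB16F1 replicate 1 (0.0135), and it was -0.45 without cmB16F1 replicate 2. It passed under 4 of 16 alternatives in all (adjusted p from 3.167e-05 to 0.345). The others were the replicate number as a block with all 9 arrays (0.0346), array weights (0.0315) and scaling to the hybridization controls, which gave the lowest value. That scaling put the Tfrc 3' set at 7.075e-117 against 2.791e-08 as reported, so its p-values may not be comparable with the rest. The middle and 5' sets, at -0.63 and -0.57, were not called either (adjusted p = 0.105 and 0.218). Of 16 alternatives, 5 gave a call for the middle set, among them both fits with the block, and 1 for the 5' set. Cells with both treatments showed a like spread at the 3' set, at 9.39, 9.98 and 10.45. Of the 3 sets for B1 and B2, repeated elements scattered through mouse transcripts, 0 were called by limma, with unadjusted p of 0.134 or more.

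**Figure D1:**
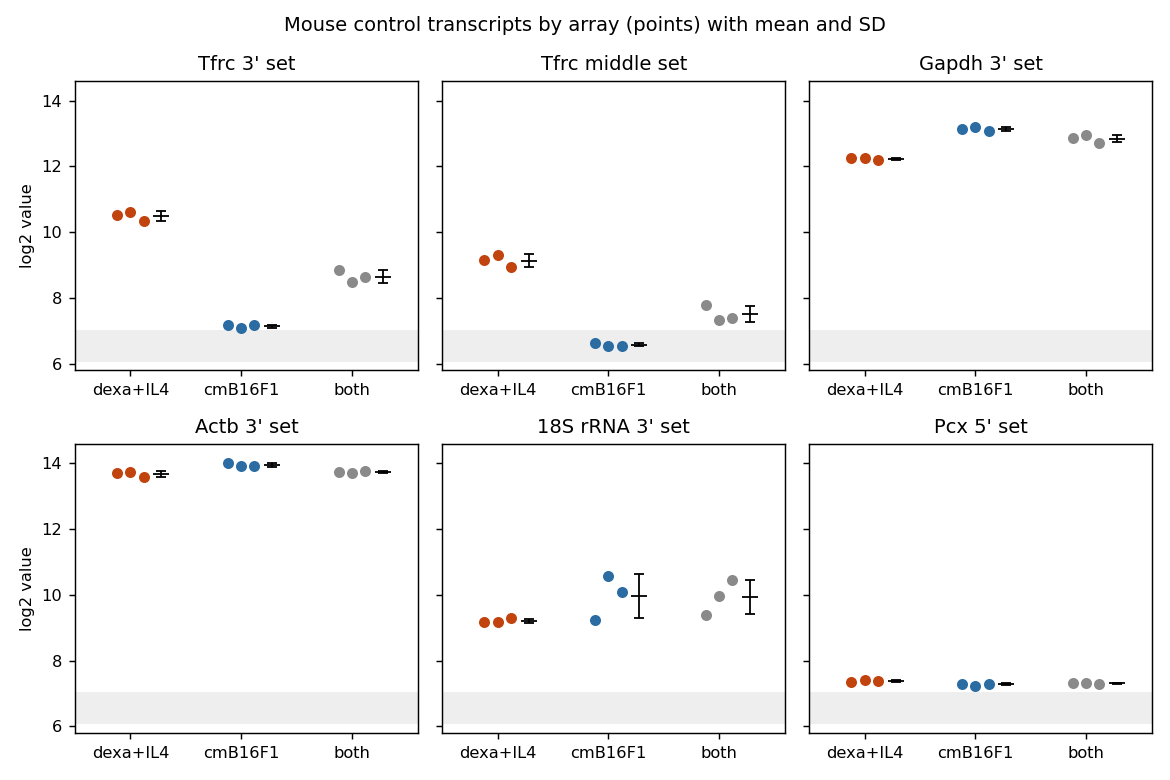
Log2 values (vertical axis) of 6 mouse control sets in dexa+IL4, cmB16F1 and cells with both treatments. Points are the 3 arrays of a group, black marks the mean and SD, and the grey band the bacterial poly-A controls from 6.09 to 7.00. The Tfrc middle set lies within the band in cmB16F1, Gapdh is lower in dexa+IL4, and the 18S values spread widely in cmB16F1.

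In all, 8 of the 19 mouse control sets were called, which belong to 4 transcripts and are not independent. Over the 17810 clusters, 4454 (25.0%) were called at a limma adjusted p under 0.05. Higher values in dexa+IL4 were found for 2273 (12.8% of clusters) and lower values for 2181 (12.2%). With arrays scaled to their hybridization controls, the called clusters numbered 1893. The median log2 difference over all clusters was 0.02. The median size of a difference was 0.08 over all clusters and 0.31 over those called, so most calls were of small differences. The differences ran from -1.15 at the 1st percentile to 0.90 at the 99th.

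Large differences were more often towards lower values in dexa+IL4, while small ones were not. Differences of 2-fold or more were called for 145 clusters (0.814%) that were higher in dexa+IL4 and for 237 (1.33%) that were lower. At 4-fold the counts were 29 (0.163%) and 47 (0.264%), and at 8-fold 9 and 15. Without a limit on size 51.0% of the calls were higher in dexa+IL4, and from 1.5-fold 413 were higher and 570 lower. From 16-fold the counts were 5 and 5, too few to show a direction. Under the 16 alternatives the 2-fold counts ran from 143 to 162 higher and from 214 to 264 lower, and the lower clusters outnumbered the higher in each.

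**Figure D2:**
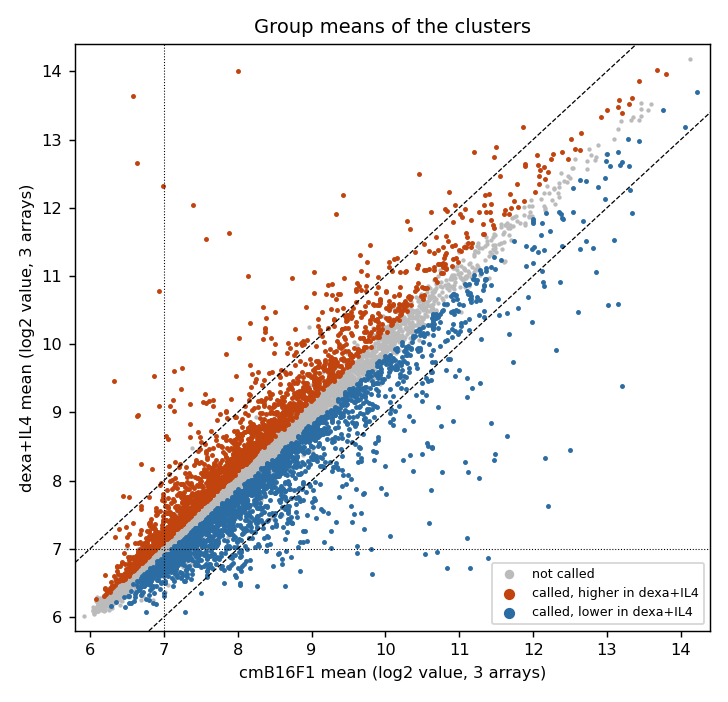
Mean log2 value of each of 17810 clusters in dexa+IL4 (vertical axis, 3 arrays) against cmB16F1 (horizontal axis, 3 arrays). Red and blue mark called clusters that were higher and lower in dexa+IL4, dashed lines a 2-fold difference and dotted lines the highest bacterial control at 7.00. Of the called clusters, 145 lie above the upper dashed line and 237 below the lower one.

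Counts of 2-fold differences were also taken by level. The clusters were ranked by their mean over all 9 arrays and cut into 5 groups of equal size. In the brightest group, from 8.46 to 14.1, 115 were higher by 2-fold or more in dexa+IL4 and 127 lower. In the next group, from 7.52 to 8.46, the counts were 26 and 84, and in the middle group, from 7.01 to 7.52, they were 3 and 23. The dimmest 2 groups together held 1 such cluster that was higher and 3 that were lower. The share of clusters called at any size was 45.2% in the brightest group and 5.08% in the dimmest, where values lie within the range of the bacterial controls and differences are compressed. The ranking used the arrays compared here and those with both treatments, so a cluster's own difference bears on its level group, and no test of the difference between levels was made.

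**Figure D3:**
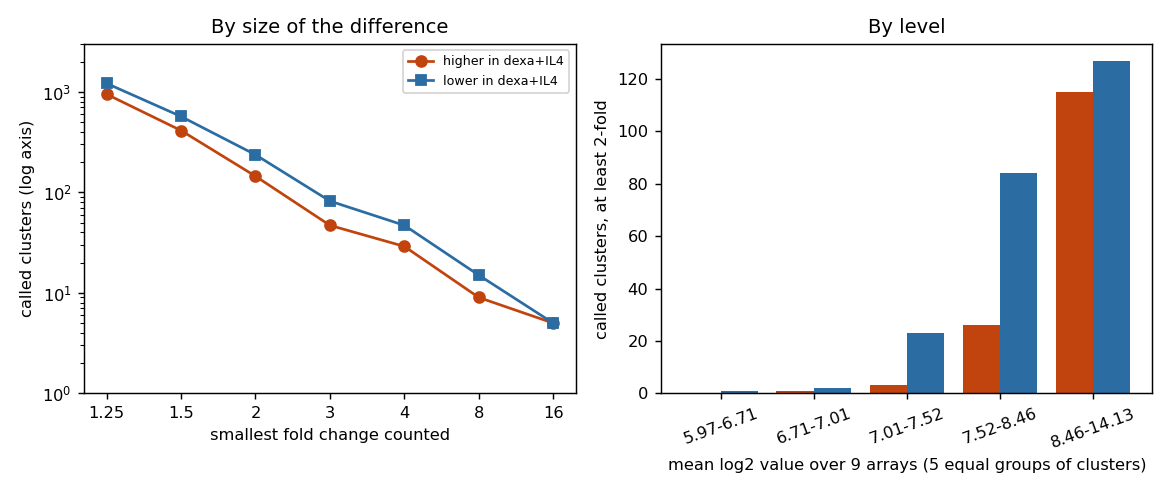
Left, number of called clusters (log axis) that were higher (red circles) or lower (blue squares) in dexa+IL4 by at least the fold change on the horizontal axis. Right, number of called clusters with an at least 2-fold difference in each of 5 equal groups of clusters by mean log2 value. The lower clusters outnumber the higher ones from 1.25-fold to 8-fold, and the gap is widest in the group from 7.52 to 8.46, with 84 against 26.

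The 2 sets of clusters also lay at different levels. Those with 2-fold or higher values in dexa+IL4 had median group means of 10.09 in dexa+IL4 and 8.45 in cmB16F1. Those at least 2-fold lower had medians of 7.74 in dexa+IL4 and 9.42 in cmB16F1. The dimmer group's mean was within the range of the bacterial controls for 14 of the 145 (9.65%) and for 51 of the 237 (21.5%), so their folds may be too small. Since each cluster is measured by its own probes, these levels compare sets of probes and not amounts of RNA.

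Presence above background was counted on the same arrays, without a test of its own. A cluster was taken as above background on an array where it exceeded that array's highest bacterial control. That limit was 6.99, 6.93 and 7.00 on the dexa+IL4 arrays and 6.90, 6.98 and 6.97 on the cmB16F1 arrays. Counts in the 2 directions therefore do not compare on equal terms. On all 6 arrays 9970 clusters were above it, and 5553 were above it on none. A further 76 (0.427%) were above it on all 3 dexa+IL4 arrays and on none of cmB16F1, of which 70 were called. The reverse held for 234 (1.31%), of which 188 were called. Over all clusters 25.0% were called. Both kinds were picked for groups lying apart on these same arrays, so their share of calls is largely set by the choice. Most lay just over the limit, with a median mean of 7.18 in dexa+IL4 for the first kind and 7.23 in cmB16F1 for the second. An at least 2-fold difference was called for 9 and 36 of them. The 76 became 164 without cmB16F1 replicate 1, and the 234 became 365 without dexa+IL4 replicate 2 and 362 without cmB16F1 replicate 3. With dim clusters left out, 41 and 150 remained.

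Cluster Mm.153688 was 1 of 2 shown that were higher in dexa+IL4. It read 13.61, 13.80 and 13.48 in dexa+IL4 and 6.63, 6.60 and 6.53 in cmB16F1. The dexa+IL4 values lay near the highest of the arrays, the cmB16F1 values within the bacterial controls, and the groups did not overlap. Its dexa+IL4 level was at least 103-fold that of cmB16F1 (limma adjusted p = 1.23e-11). Cells with both treatments read 14.11, 14.14 and 14.02.

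Mm.422943, the other cluster shown that was higher, read 12.56, 12.75 and 12.67 in dexa+IL4 and 6.53, 6.89 and 6.50 in cmB16F1. All cmB16F1 values lay within the bacterial controls, and the dexa+IL4 level was at least 52.4-fold higher (limma adjusted p = 1.592e-07). With both treatments it read 6.91, 7.59 and 8.07, all far below its level with dexamethasone and IL-4 alone.

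Of the 2 clusters shown that were lower in dexa+IL4, Mm.425949 read 7.60, 7.64 and 7.65 in dexa+IL4 and 12.85, 12.06 and 11.69 in cmB16F1. The dexa+IL4 arrays were within 0.05 of each other while the cmB16F1 arrays spread over more than 1 log2 unit, and no arrays of the groups overlapped. The means of 7.63 ± 0.02 and 12.20 ± 0.59 (SD, n = 3) differed 23.7-fold (log2 difference -4.57, SE 0.293, limma adjusted p = 3.447e-06). With both treatments the values were 9.15, 8.43 and 8.14.

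Mm.19987 read 6.78, 7.04 and 6.76 in dexa+IL4 and 11.73, 12.03 and 10.41 in cmB16F1. Its dexa+IL4 mean of 6.86 lay within the bacterial controls, and the cluster was at least 20.8-fold lower in dexa+IL4 (limma adjusted p = 1.716e-04). With both treatments it read 10.73, 11.43 and 9.23, so replicate 3 was the lowest of its group in both groups with conditioned medium. The 4 clusters were chosen for the size of their measured difference among called clusters without overlap. Their calls and lack of overlap were thus conditions of the choice and add no support. Since 3 of the 4 clusters have a group mean within the bacterial controls, no order of size is given. The calls of the 4 held under all 16 alternatives.

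**Figure D4:**
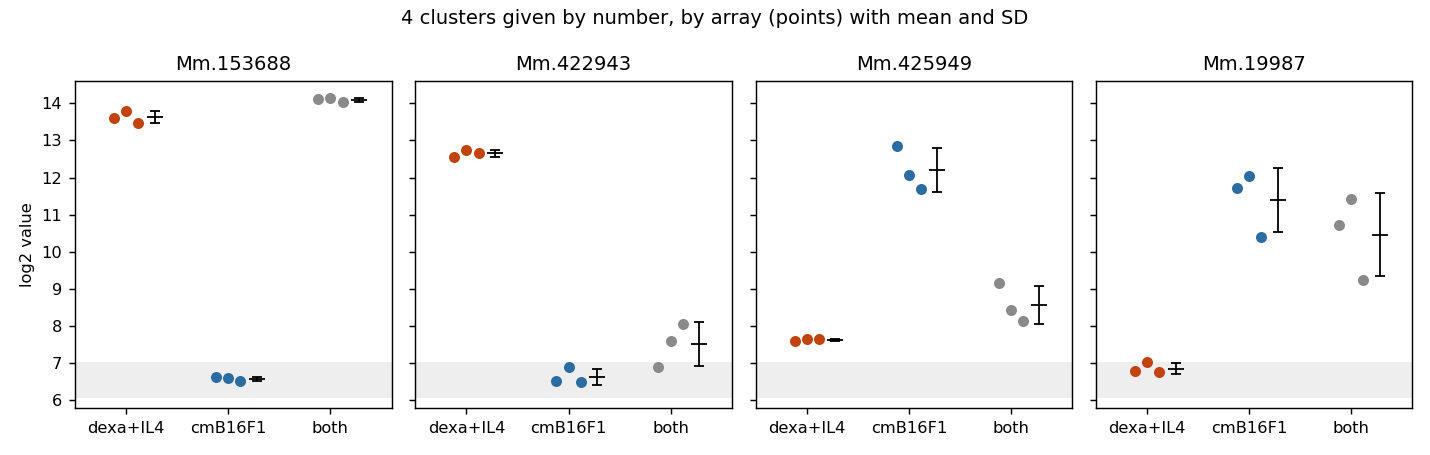
Log2 values (vertical axis) of the 4 clusters given by number, in dexa+IL4, cmB16F1 and cells with both treatments. Points are the 3 arrays of a group, black marks the mean and SD, and the grey band the range of the bacterial controls. Mm.153688 stays high with both treatments while Mm.422943 does not, and the cmB16F1 arrays of Mm.19987 span from 10.41 to 12.03.

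In 7898 clusters (44.3%) no dexa+IL4 array lay among the cmB16F1 arrays, with dexa+IL4 above in 4405 and below in 3493. Of the 4454 called clusters 4444 were without overlap, and a further 3454 were without overlap but not called. Scaling to the hybridization controls left 3291 clusters without overlap.

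Spread within the groups was unequal. The number of clusters at least 2-fold apart between 2 arrays was 1 to 4 for the 3 pairs within dexa+IL4, 13 to 39 for the 3 pairs within cmB16F1, and 328 to 504 for the 9 pairs between the groups. Differences between pairs of arrays had an SD over clusters of 0.0775 to 0.109 within dexa+IL4 and 0.132 to 0.161 within cmB16F1, against 0.330 to 0.385 between the groups. The SD of a cluster over 3 arrays was larger in cmB16F1 than in dexa+IL4 for 60.6% of clusters. Its median over clusters was 0.0435 in dexa+IL4, 0.0541 in cmB16F1 and 0.0631 with both treatments. The arrays with both treatments, which enter the p-values, thus had the largest median. In the clusters at least 2-fold lower in dexa+IL4, the cmB16F1 SD had a median of 0.245. In those at least 2-fold higher, the dexa+IL4 SD had a median of 0.0938.

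**Figure D5:**
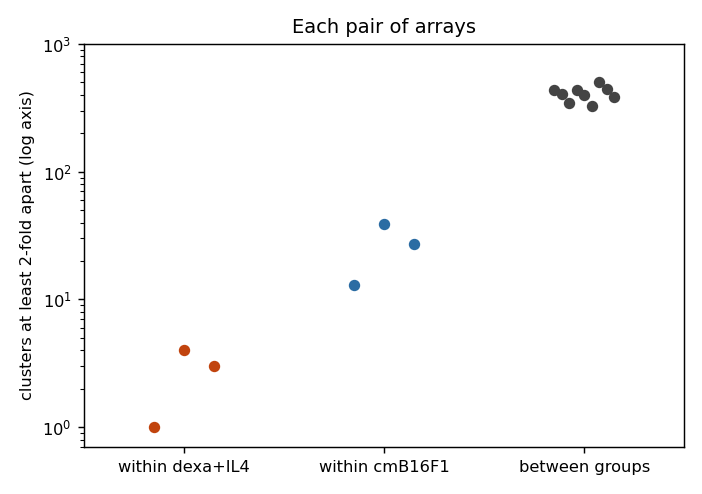
Number of clusters at least 2-fold apart (vertical log axis) for each pair of arrays within dexa+IL4, within cmB16F1 and between the groups. Each point is 1 pair of arrays. Pairs between the groups, at 328 to 504 clusters, lie above the pairs within cmB16F1, at 13 to 39, and these above the pairs within dexa+IL4, at 1 to 4.

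The cmB16F1 replicate 3 array lay closest to dexa+IL4. It was the cmB16F1 array nearest to the dexa+IL4 mean in 124 of the 237 clusters at least 2-fold lower in dexa+IL4, against 63 for replicate 1 and 50 for replicate 2. In the 145 clusters at least 2-fold higher, it was nearest in 88, against 41 and 16. Without it, 154 clusters were at least 2-fold higher and 264 lower. Of the dexa+IL4 arrays, replicate 2 was nearest to cmB16F1 in 128 of the 237 clusters, against 57 and 52, and in 56 of the 145, against 44 and 45.

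RNA quality was compared by the difference between 3' and 5' sets of a transcript, which grows with degradation. For Gapdh the log2 difference was 0.30 ± 0.08 in dexa+IL4 and 0.42 ± 0.20 in cmB16F1 (SD, n = 3, two-sided exact permutation p = 0.4). For Actb it was 0.99 ± 0.11 and 0.96 ± 0.21 (exact permutation p = 1). The smallest p this test can give with 3 arrays against 3 is 0.1. The corresponding Tfrc difference, 1.69 ± 0.08 and 0.67 ± 0.08, is not comparable, since its 5' set lay within the bacterial controls in cmB16F1. The part of RNA quality in the differences between the groups was not tested further.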

How the data were processed

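Gene expression was measured on 1-colour Affymetrix arrays in 9 samples of mouse macrophage cultures, 3 in each of 3 groups, of which 2 groups are compared. The deposited log2 values had been normalized by the authors. RNA was labelled with biotin as cRNA, per the labels' protocols. No header states the log2 scale, which was inferred from the range of the values. How background was corrected, arrays were normalized and probes were summarized is not given in the sources. The number of arrays limits the precision.

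The table held 17931 rows: 64 control sets (19 for mouse transcripts, 18 hybridization and 27 bacterial poly-A controls) and sets for 17810 clusters. For 57 clusters with a plus and a minus set, the set with the higher mean over 9 arrays was used. The members, gene lists and rules were chosen with earlier results of these data known. The rule for named genes asked for the leading genes, list members, 12 symbols and the mouse control sets, and, without gene names, for the 2 clusters with the largest measured difference in each direction among those called without overlap and with a higher mean above the bacterial controls. The planned counts for gene lists were not made, since 0 clusters could be named.

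The test was that of limma 3.58.1 (lmFit, eBayes with a mean-variance trend, R 4.3.3) on all 9 arrays with group as the term, with 6 residual and 3.85 prior degrees of freedom. Adjustment was by Benjamini-Hochberg over 17829 features, with a threshold of 0.05 (called). The procedure was tested on simulated data. Those data had the same spread in all groups and no effect of replicate number, so that test does not cover the unequal spread seen here. Intervals and SDs are over arrays. Equal replicate numbers of the groups had deviations correlated at 0.236, -0.0234 and 0.167 across clusters, not all over 0.1, and were not taken as pairs. Unequal numbers gave correlations from -0.222 to 0.0755. The B1 repeat set was highest in replicate 2 of each group, at 10.95 in dexa+IL4, 10.94 in cmB16F1 and 10.91 with both treatments. Whether equal numbers share a culture or a run was not tested, and the main fit makes no allowance for it. The alternatives were 3 normalizations, array sets, variance models, filters, the replicate block and leaving out each array.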

Additional observations from a re-analysis of the deposited data

How the results depend on the processing

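In all, 16 alternatives were run for the clusters and named sets. The count of called clusters was 4454 as reported. It was 1893 with arrays scaled to their hybridization controls, with 933 higher and 960 lower in dexa+IL4, and the cause was not tested. That scaling put the median log2 difference at 0.06 and the percentage of calls that were higher in dexa+IL4 at 49.3%, against 51.0%. Of its calls, 1801 were among the 4454. Under the other alternatives the counts stayed within 1.5 times, from 3218 to 5614, with 48.6% to 57.6% (median centring) of calls higher. Leaving out 1 array gave 3218 to 3912 called clusters, 1604 to 1902 higher and 1614 to 2010 lower. The replicate number as a block gave 5172 calls with all 9 arrays and 4654 with only the 6, and the labels do not show that the numbers pair the arrays. The middle set of Actb passed with the block (limma adjusted p = 0.0211 and 0.0251, of a range from 0.0211 to 0.284 over 16 alternatives). So did the middle set of 18S in both such fits (0.0434 and 0.0448) and its 3' set with all 9 arrays (0.0346). The lower of 2 sets for the 57 clusters with a plus and a minus set gave 4448. The difference of the first middle set of Pcx turned to -0.0015 without dexa+IL4 replicate 1 and was up to 0.0350 with another array left out. The group difference in the 3' minus 5' value of Actb was 0.03, -0.0949 with quantile normalization, and between -0.0858 and 0.12 when 1 array was left out. For Gapdh it stayed negative, from -0.23 to -0.0424. Gene lists were not compared under other settings, because no cluster could be named. Other changes of call for named sets stand beside their values. Values close to the bacterial controls or to the highest value limit what sizes can be measured.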

Other observations

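The 57 clusters with a plus and a minus set on the array give a pair of readings each, whose relation to the strands is not stated. When both sets were tested (17886 features), both were called in 3 pairs, in the same direction in all 3, and 1 of the pair was called in 16. In 11 of these 16 the called set was the brighter one. In 38 pairs limma called neither set. Over all clusters, with 1 set each, 25.0% were called, and 3 pairs are too few to show whether the sets of a pair go together. Both sets had means above the highest bacterial control in 7 pairs, 1 of them had in 25, and neither in 25. Called differences of 2-fold or more included 9 clusters with a group mean above 13, of 44 such clusters, close to the highest value of the arrays. Over all 17810 clusters, 0.814% were at least 2-fold higher and 1.33% at least 2-fold lower. A cluster entered the 44 through its higher group, so a large difference itself helps it pass, and the counts do not compare on equal terms.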
